A study of Mus musculus with 12 samples.

Results

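The Slc25 genes encode the mitochondrial carriers, and their messenger RNA was followed here in mouse hearts under pressure overload. Members were all protein-coding genes named Slc25a followed by a number that had at least 10 counts in 4 or more libraries. This rule took 40 of the 47 protein-coding Slc25a genes among 54146 gene records. Polyadenylated RNA was sequenced in 12 heart libraries, 4 in each of 3 groups, collected 6 weeks after surgery. Sham WT libraries came from wild-type mice whose aorta was not constricted, and TAC WT libraries from wild-type mice with transverse aortic constriction, an operation that narrows the aortic arch. TAC KO libraries came from NRON KO mice, which lack a long noncoding RNA, after the same operation. The sources used here give no strain, sex, age or construction of the knockout, and knockout hearts after sham surgery were not analysed here. No label states that replicates were separate animals, so the p-values measure the spread between these libraries, which may be technical.

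Mitochondrial carriers are proteins of the inner mitochondrial membrane, built of repeated pairs of membrane helices, that move nucleotides, phosphate, keto acids, amino acids, acylcarnitines and cofactors between the matrix and the cytosol. In heart muscle the ADP/ATP carrier and the phosphate carrier feed the ATP synthase, the carnitine/acylcarnitine carrier brings fatty acids in for oxidation, and the oxoglutarate and aspartate/glutamate carriers complete the malate-aspartate shuttle of reducing power. The family also serves iron, glutathione, coenzyme A and nucleotide supply, and several members have no settled substrate.

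Library totals ran from 26288519 to 35945770 counts. Levels are given as scaled counts-per-million (CPM), which are counts divided by the library total after TMM scaling (trimmed mean of M values). Both annotated Nron records had 0 counts in all 12 libraries, which allows up to 0.0820 to 0.1102 CPM per library, so the knockout could not be checked on its target. The TAC KO libraries stood apart in base composition. Each gene's log2 level in a library was set against its own mean over the 12 libraries. The median of these deviations was then compared between quintiles of GC content. In TAC KO the highest quintile exceeded the lowest by 0.0851 to 0.339 on the log2 scale, with 0.339 in replicate 1. In the 8 wild-type libraries the contrast was -0.119 to -0.0341. The same contrast between the longest and shortest quintiles of transcript length was -0.203 to -0.119 in TAC KO and -0.0204 to 0.160 in the wild-type libraries. The share of counts from mitochondrially encoded transcripts was 20.2% to 22.2% for Sham WT, 17.4% to 19.8% for TAC WT and 18.0% to 20.7% for TAC KO. TAC WT lay below Sham WT in this share without overlap, and its part in the differences of the carriers was not tested. Summed cardiomyocyte markers were 61497 to 71311 CPM in Sham WT, against 56273 to 59081 in TAC WT and 55464 to 59284 for TAC KO, and of 6 such markers 2 fell in TAC WT against Sham WT, 1 rose in TAC KO against TAC WT and 3 fell in TAC KO against Sham WT. The shares of all genes called the same way in these comparisons were 10%, 15.7% and 14.8%. Skeletal muscle markers summed to 13.1 CPM in TAC WT replicate 4 and lymphocyte and white adipocyte markers to at most 3.61 and 2.16 CPM in any library. In whole-heart RNA, fewer cells of a type and less RNA per cell cannot be told apart.

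Of the 7 genes left out, Slc25a43 was just outside the minimum, with 3 to 14 counts and only 3 libraries at 10 or more. Slc25a18 had 1 to 9 counts, Slc25a31 had 1 to 6, Slc25a21 had 0 to 4, Slc25a41 and Slc25a48 had at most 1, and Slc25a54 had 0 in every library. The member just inside was Slc25a2, an ornithine carrier copy without introns, with 1 to 11 counts and 5 libraries at 10 or more. Slc25a2 was too low for testing, so 39 of the 40 members entered the fit of 15477 genes.

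A few promoters are shown first, of members called in opposite directions in TAC KO against TAC WT: Slc25a42 and Slc25a20 rose, and Slc25a25 and Slc25a36 fell. The first pair had fallen in TAC WT against Sham WT, where Slc25a25 rose and Slc25a36 was not called. The falls of Slc25a25 and Slc25a36 and the rise of Slc25a42 in TAC KO were lost under some alternatives, given with their values. Slc25a37 also fell in TAC KO against TAC WT, and its promoter is not shown. RefSeq (GRCm38.p6) gave promoter windows for 30 of the 40 members, with 39 windows in all because some have several start sites. The 250 bases before each start were searched on both strands for 6 motifs. Capitals mark the cyclic AMP response element TGACGTCA, which was present in 2 of the 39 member windows (5.13%) and in 1.55% of all 32851 windows. Both windows, of Slc25a25 and Slc25a36, are among those shown. The Slc25a25 start was picked because its window holds the element, so the display does not compare members that rose with members that fell. The Slc25a42 window is on the minus strand at chr8:70212282-70212531, Slc25a20 on the plus strand at chr9:108661886-108662135, Slc25a25 on the minus strand at chr2:32424067-32424316, which is 1 of its 3 listed starts, and Slc25a36 on the minus strand at chr9:97111042-97111291.
Slc25a42: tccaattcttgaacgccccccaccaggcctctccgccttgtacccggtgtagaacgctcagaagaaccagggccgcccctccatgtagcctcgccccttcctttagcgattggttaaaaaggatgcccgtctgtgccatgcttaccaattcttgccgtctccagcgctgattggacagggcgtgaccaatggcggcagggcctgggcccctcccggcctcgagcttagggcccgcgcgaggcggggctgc
Slc25a20: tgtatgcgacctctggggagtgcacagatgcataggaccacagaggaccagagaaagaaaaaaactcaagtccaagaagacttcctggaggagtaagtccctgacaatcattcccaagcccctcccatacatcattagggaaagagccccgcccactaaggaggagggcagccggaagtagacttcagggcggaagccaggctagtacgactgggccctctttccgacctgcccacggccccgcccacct
Slc25a25: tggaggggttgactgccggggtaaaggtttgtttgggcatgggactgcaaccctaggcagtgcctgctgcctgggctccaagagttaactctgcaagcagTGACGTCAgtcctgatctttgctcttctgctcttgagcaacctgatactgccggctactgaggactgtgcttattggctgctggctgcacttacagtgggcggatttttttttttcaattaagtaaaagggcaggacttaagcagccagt
Slc25a36: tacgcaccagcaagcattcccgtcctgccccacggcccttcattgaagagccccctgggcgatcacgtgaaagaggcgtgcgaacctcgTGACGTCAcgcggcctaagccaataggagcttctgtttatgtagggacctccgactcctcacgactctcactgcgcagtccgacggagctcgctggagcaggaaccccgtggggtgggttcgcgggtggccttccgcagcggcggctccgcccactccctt
In the remaining searches, the NFAT core GGAAAA was in 8 member windows (20.5%) against 20.4% of all windows. The NRF1 site (GCGCA, any base, then GCGC) was in 1 member window, that of Slc25a3 (2.56% against 3.74%). The estrogen-related receptor site TNAAGGTCA, the ETS-type site CCGGAAGTG and the PPAR direct repeat (AGGTCA, any base, then AGGTCA) were in no member window, against 1.14%, 1.44% and 0.0335% of all windows. Median GC content was 58.0% in the member windows and 52.4% in all windows. A match is a string of letters in a window and not evidence of binding.

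The family was dominated by the carriers of the ATP cycle. Per kilobase of exon, the mean level over all libraries was 2128 CPM for Slc25a4 (ADP/ATP carrier 1, the heart and muscle form), 284 for Slc25a3 (phosphate carrier), 219 for Slc25a11 (oxoglutarate/malate carrier) and 142 for Slc25a5 (ADP/ATP carrier 2). These 4 were followed at some distance by Slc25a34, an orphan carrier, at 53.1, the glutathione carrier Slc25a39 at 43.5, the aspartate/glutamate carrier citrin, Slc25a13, at 39.3, Slc25a20 (carnitine/acylcarnitine carrier) at 33.0 and Slc25a12 (aralar, the other aspartate/glutamate carrier) at 31.0. The lowest were the folate carrier Slc25a32 at 0.189, the orphan Slc25a53 at 0.180 and Slc25a2 at 0.164. Slc25a4 alone made 68.1% of the summed level per kilobase, and 55.4% to 59.1% of the summed CPM of the family in single libraries.

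**Figure D1:**
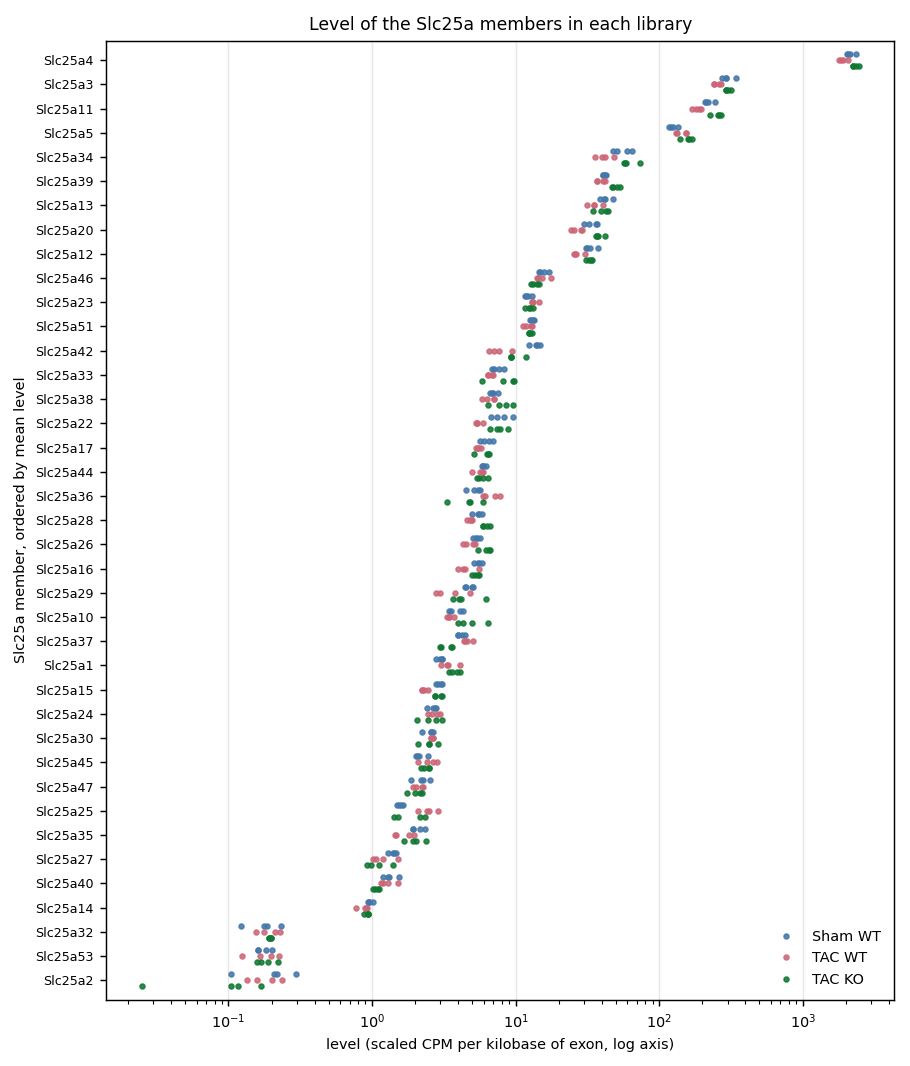
Level of the members, all but 1, in each of the 12 libraries, in scaled CPM per kilobase of exon on a log axis, with members ordered by their mean and points coloured by group. Slc25a4 stands at a mean of 2128, above Slc25a3 at 284, and Slc25a32, Slc25a53 and Slc25a2 lie below 0.2.

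Some neighbours in that order lay close. Slc25a13 and Slc25a20 per kilobase were 42.4 ± 3.95 and 33.9 ± 3.28 CPM in Sham WT, 35.6 ± 4.01 and 26.9 ± 2.38 in TAC WT, and 40.1 ± 4.09 and 38.2 ± 2.62 in TAC KO (SD, n = 4), so their gap exceeded the SDs in Sham WT and TAC WT but not in TAC KO. Slc25a46, Slc25a23 and Slc25a51 lay together at 14.9, 12.7 and 12.6 over all libraries.

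Summed over all members, the family held 8463 to 9788 CPM in Sham WT, against 7490 to 8352 in TAC WT and 9260 to 9923 for TAC KO. TAC WT lay below both other groups with no overlap, while Sham WT and TAC KO overlapped. The sum is mostly Slc25a4 and Slc25a3, which together made 73.7% to 76.3% of it in each library. Without Slc25a4 the order was the same, at 3900.1 ± 270.1 CPM in Sham WT, against 3394 ± 199 in TAC WT and 4038 ± 141 for TAC KO (SD, n = 4).

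The first comparison, TAC WT with Sham WT, shows the family under pressure overload in wild-type hearts. By edgeR's quasi-likelihood test with Benjamini-Hochberg adjustment over all genes, 9 of the 39 tested members fell and 1 rose. Over all genes tested, 10% fell and 9.67% rose. The median log2 fold change was -0.15 over the members and -0.0004 over all genes, and 28 members had a value below 0. CPM ranges were apart for 9 lower members and 3 higher ones, against 12.7% and 12% of all genes. The members that fell served amino acids (3 of 7 tested), cofactors (2 of 8), phosphate (1 of 7 in the nucleotide and phosphate group), dicarboxylates (1 of 3), acylcarnitines (the only member) and no known substrate (1 of 6).

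The second comparison, TAC KO with TAC WT, asks how knockout hearts differed after the same operation. Here 14 of 39 members rose and 3 fell, against 15.7% and 17.3% of all genes. The median log2 fold change was 0.17 over the members and -0.002 over all genes, with 28 members above 0. Ranges did not overlap for 12 higher members and 2 lower ones, against 13.3% and 15.2% of all genes. This comparison shares the TAC WT libraries with the first, so a low or high value in TAC WT enters both with opposite sign, and the values are set side by side below without a test of the relation.

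Members that rose had a median GC content of 53.9% (n = 14), those not called 48.3% (n = 22) and those that fell 48.2% (n = 3), and over all genes the medians were 53.1% for risers and 46.2% for fallers. When GC and length trends of each library were removed, 10 members rose and 2 fell in TAC KO against TAC WT, with 10 calls shared by both fits, 7 lost and 2 gained. Over all 15477 genes, that fit called 1827 up and 2162 down, against 2428 and 2682 before. The median of the family became 0.11. The calls lost were Slc25a4, Slc25a10, Slc25a25, Slc25a36, Slc25a38, Slc25a39 and Slc25a42, and those gained were Slc25a16, which rose, and Slc25a23, which fell. What part of the difference between TAC KO and TAC WT moves with GC content otherwise was not tested.

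**Figure D2:**
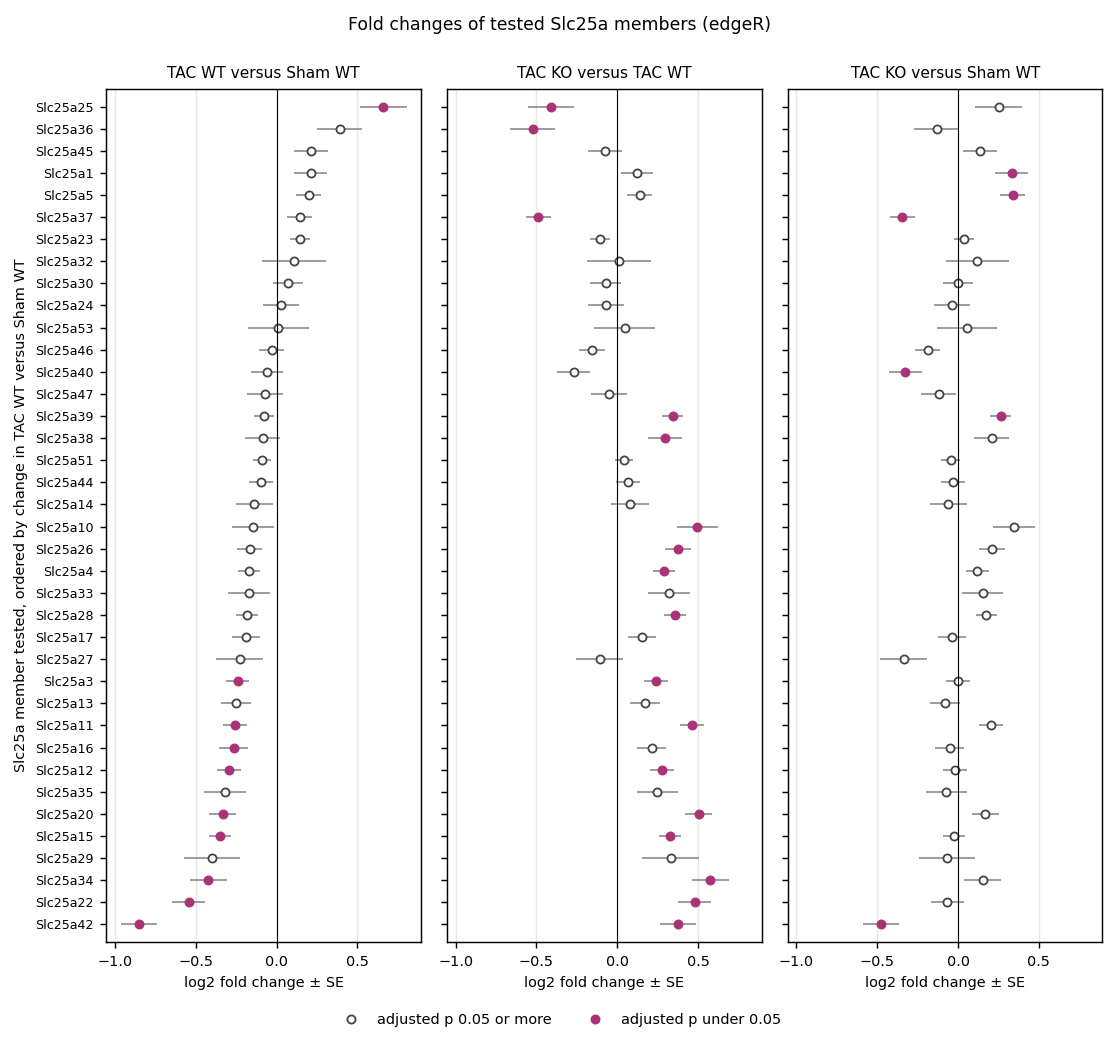
Log2 fold change with its SE for the tested members, all but 1, in the 3 comparisons (edgeR, all libraries in 1 fit), with filled points where the adjusted p was under 0.05. The 9 filled points on the left of 0 in TAC WT versus Sham WT and the 14 on the right of 0 in TAC KO versus TAC WT include Slc25a42, Slc25a22 and Slc25a20 in both.

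The third comparison, TAC KO with Sham WT, differs in both surgery and genotype, which cannot be told apart in it. Of 39 members 3 rose and 3 fell, against 12.8% and 14.8% of all genes, and the median log2 fold change was -0.02 over the members and 0.0003 over all genes. Ranges did not overlap for 4 higher and 4 lower members, against 14.3% and 16.3% of all genes. The split of calls depended on scaling: upper-quartile scaling gave 7 up and 3 down, and RLE (relative log expression) scaling 4 up and 3 down. Over all genes the same scalings gave 2254 up and 2108 down, and 2064 up and 2236 down, against 1986 and 2287 with TMM. When trends of GC and length were removed, edgeR called 0 members higher (2 at an unadjusted p under 0.05) and 3 lower, namely Slc25a42, Slc25a37 and the orphan Slc25a47. Among all genes that fit called 1454 up and 1809 down.

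Among the carriers of the ATP cycle, Slc25a4 (ENSMUSG00000031633.4, chromosome 8, 46206797 to 46211284 in GRCm38) exchanges matrix ATP for cytosolic ADP. Its level in replicates 1 to 4 was 5507, 4902, 5019 and 4769.8 CPM in Sham WT, 4208, 4518, 4871 and 4360.0 in TAC WT, and 5305, 5267, 5583 and 5776 in TAC KO. All 4 TAC KO libraries lay above all TAC WT libraries, while Sham WT overlapped TAC WT through TAC WT replicate 3. Slc25a4 rose in TAC KO against TAC WT by 0.29 on the log2 scale (SE 0.07, adjusted p = 0.00669, edgeR), but by 0.15 with adjusted p = 0.0954 when GC and length trends were removed. Against Sham WT, Slc25a4 was -0.17 in TAC WT (adjusted p = 0.105) and 0.12 in TAC KO (adjusted p = 0.225), neither called. DESeq2 (adjusted p = 0.0480) and limma voom (adjusted p = 0.0297) put the TAC WT value past the threshold.

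Slc25a3 (ENSMUSG00000061904.12, chromosome 10, 91116574 to 91124059) imports the phosphate that ATP synthase uses. It stood at 1892, 1611, 1615 and 1533 CPM in Sham WT, 1334, 1491, 1456 and 1347 in TAC WT, and 1667, 1617, 1618 and 1749 in TAC KO. Every TAC WT library was below every library of the other groups. Slc25a3 fell by 0.24 in TAC WT (SE 0.07, adjusted p = 0.0301, edgeR) and rose by 0.24 in TAC KO against TAC WT (SE 0.07, adjusted p = 0.0206), with group means of 1663 ± 157, 1407 ± 78.1 and 1663 ± 62.2 CPM (SD, n = 4). The fall was lost without Sham WT replicate 1, 2 or 3 or TAC WT replicate 1 or 4 (adjusted p from 0.0547 to 0.1004) and with the groups compared alone (0.0548), and the rise without TAC WT replicate 1 (0.0607) or TAC KO replicate 4 (0.0564).

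Slc25a5, the ADP/ATP carrier form typical of dividing cells, went another way. It had 223, 200.2, 193 and 206 CPM in Sham WT, 218, 254, 255 and 217 in TAC WT, and 268, 231, 262 and 278 in TAC KO. TAC KO lay above Sham WT without overlap, and TAC WT overlapped both. Slc25a5 rose in TAC KO against Sham WT by 0.34 (SE 0.08, adjusted p = 0.00604, edgeR), or 0.20 with adjusted p = 0.0577 without GC and length trends, and its values of 0.20 in TAC WT (adjusted p = 0.0857) and 0.14 in TAC KO against TAC WT (adjusted p = 0.191) were not called. Near-identical copies at the minimum of 95% identity were found only for this member, namely Gm5560 (98.3% identity, 1 to 18 counts) and Gm5529 (96.8%, 0 to 6 counts), so some of its reads could have been split between copies.

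The ratio of the ADP/ATP carriers within a library is given as a description. Per 100 units of Slc25a4 per kilobase there were 5.50 to 6.16 units of Slc25a5 in Sham WT, against 7.10 to 8.03 in TAC WT and 6.26 to 7.21 for TAC KO. Sham WT lay below both TAC groups, and the TAC groups overlapped. Summed fibroblast markers differed between the same groups, at 520 to 583 CPM in Sham WT, against 589 to 769 in TAC WT and 653 to 922 for TAC KO. Of 5 markers 2 rose in TAC WT and 3 in TAC KO against Sham WT, where 9.67% and 12.8% of all genes rose. The marker Tcf21 went the other way in TAC WT, at -0.38, and was not called (adjusted p = 0.0965, edgeR). The part of fibroblasts in the ratio was not tested.

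**Figure D3:**
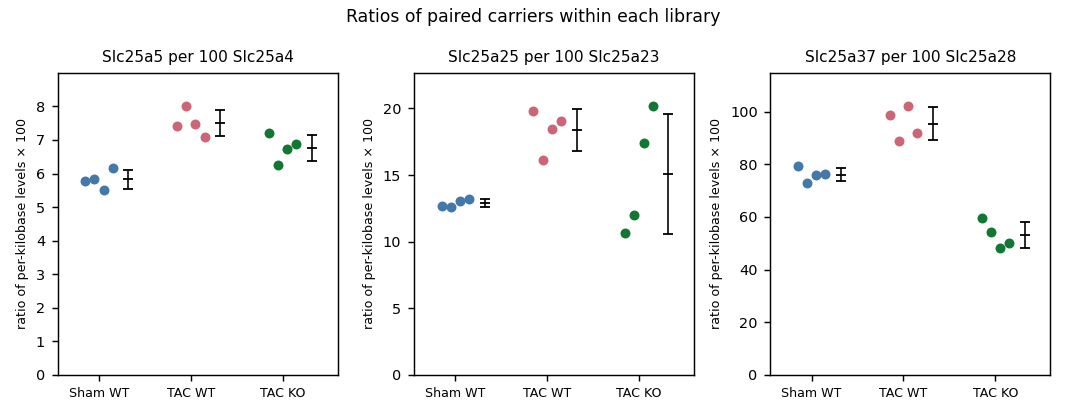
Ratios of the per-kilobase levels of paired carriers in each library, times 100, with group mean and SD (n = 4) in black: Slc25a5 to Slc25a4, Slc25a25 to Slc25a23, and Slc25a37 to Slc25a28. The Slc25a37 to Slc25a28 ratio runs from 48.4 to 59.8 in TAC KO, below the 72.9 to 79.3 of Sham WT and the 88.9 to 102 of TAC WT.

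The calcium-regulated ATP-Mg/phosphate carriers set the adenine nucleotide pool of the matrix. Slc25a25 (ENSMUSG00000026819.15, chromosome 2, 32414487 to 32451445) was the 1 member that rose in TAC WT with all libraries in edgeR's fit. Its CPM were 11.8, 12.8, 12.03 and 12.6 in Sham WT, 22.7, 16.5, 18.9 and 19.7 in TAC WT, and 11.2, 11.9, 17.0 and 18.4 in TAC KO. All TAC WT libraries exceeded all Sham WT libraries, and TAC KO split into a pair at Sham levels (replicates 1 and 2) and a pair within the TAC WT range. The rise in TAC WT was 0.66 (SE 0.14, adjusted p = 0.00518, edgeR). Slc25a25 fell in TAC KO against TAC WT by 0.41 (SE 0.14, adjusted p = 0.0400), a call lost on leaving out any Sham WT library, TAC WT replicate 1, 3 or 4, or TAC KO replicate 1 or 2 (adjusted p from 0.0503 to 0.129), with the groups compared alone (0.0841) and with trends removed (0.0603). Slc25a25 overlaps Naif1 on the other strand (164 to 240 counts).

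Its relatives Slc25a23 and Slc25a24 moved less. Slc25a23 was 62.1 to 68.4 CPM in Sham WT, against 68.8 to 77.1 in TAC WT and 61.2 to 70.5 for TAC KO, with a value of 0.14 in TAC WT that was not called (adjusted p = 0.117, edgeR) although the ranges did not overlap. The rise in TAC WT was called without GC and length trends (0.16, adjusted p = 0.0333) and by limma voom (0.17, adjusted p = 0.0365). Without GC and length trends, Slc25a23 also fell by 0.21 in TAC KO against TAC WT (adjusted p = 0.00883). Per 100 units of Slc25a23 per kilobase, Slc25a25 had 12.6 to 13.2 in Sham WT, against 16.1 to 19.8 in TAC WT and 10.7 to 20.2 for TAC KO. Slc25a24 (9.14 ± 0.564, 9.32 ± 0.772 and 8.87 ± 1.48 CPM in Sham WT, TAC WT and TAC KO, with SD, n = 4) and the peroxisomal nucleotide carrier Slc25a17 (17.9 ± 1.56, 15.7 ± 0.473 and 17.4 ± 1.85) were not called in any comparison with all libraries. Without TAC KO replicate 1, Slc25a17 was called higher in TAC KO than in TAC WT (0.22, adjusted p = 0.0392, edgeR).

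The carnitine/acylcarnitine carrier Slc25a20 (ENSMUSG00000032602.6, chromosome 9, 108662088 to 108684641) exchanges acylcarnitines for free carnitine. Its level was 178, 177, 146 and 156 CPM in Sham WT, 124, 139, 142 and 118 in TAC WT, and 175, 203, 182 and 179 in TAC KO. TAC WT was lowest without overlap with either group, and Sham WT and TAC KO overlapped. Slc25a20 fell by 0.33 in TAC WT (SE 0.08, adjusted p = 0.0110, edgeR) and rose by 0.50 in TAC KO against TAC WT (SE 0.08, adjusted p = 0.000600), and both calls held in all 21 alternatives of each comparison. The value against Sham WT was 0.17 in TAC KO (adjusted p = 0.139), not called.

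The genes that work with Slc25a20 in carnitine-dependent fatty acid import were read from a list of 5 partners. These were the enzymes Crat, Cpt2, Cpt1a and Cpt1b and the carnitine transporter Slc22a5. In TAC WT 3 of 5 fell, with a median of -0.35, where 10% of all genes fell. In TAC KO against TAC WT 4 rose, with a median of 0.46, where 15.7% of all genes rose. Crat, carnitine acetyltransferase, fell by 0.49 (adjusted p = 0.00118, edgeR) and rose by 0.55 (adjusted p = 0.000405). Cpt2, the inner-membrane carnitine palmitoyltransferase, fell by 0.29 (adjusted p = 0.0159) and rose by 0.46 (adjusted p = 0.000605). Cpt1b, the muscle form of the outer-membrane enzyme, was at -0.20 (adjusted p = 0.144) and 0.03 (adjusted p = 0.844) and was not called. Cpt1a, another form of that enzyme, fell by 0.45 (adjusted p = 0.00749, edgeR) and rose by 0.35 (adjusted p = 0.0209). Slc22a5 was at -0.35 in TAC WT (adjusted p = 0.0653), not called, and rose by 0.47 in TAC KO against TAC WT (adjusted p = 0.0116).

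Slc25a11 (ENSMUSG00000014606.14, chromosome 11, 70644196 to 70647479) exchanges oxoglutarate for malate. Its CPM were 516, 465, 446 and 440.1 in Sham WT, 383, 417, 401 and 362 in TAC WT, and 572, 547, 476 and 558 in TAC KO. TAC WT lay below both other groups, and TAC KO overlapped Sham WT through replicate 3. Slc25a11 rose in TAC KO against TAC WT by 0.46 (SE 0.07, adjusted p = 0.000553, edgeR), and by 0.28 with trends removed, still called. Its fall of 0.26 in TAC WT (SE 0.07, adjusted p = 0.0253) was lost without Sham WT replicate 1 or 2 or TAC WT replicate 1 or 4 (adjusted p from 0.0579 to 0.0846). In TAC KO against Sham WT its value of 0.20 was not called (adjusted p = 0.0538, edgeR). DESeq2 (0.0267), limma voom (0.0221) and some other alternatives put that value past the threshold. With trends removed it was 0.02 (adjusted p = 0.883). Slc25a11 overlaps Rnf167 on the other strand (1142 to 1921 counts), and the sources used here do not say whether counting used strand.

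The aspartate/glutamate carriers are the other arm of the malate-aspartate shuttle. Slc25a12 (chromosome 2, 71271063 to 71367749) had 276, 242, 227 and 230.0 CPM in Sham WT, 195, 223, 189 and 189 in TAC WT, and 252, 238, 227 and 247 in TAC KO. Every TAC WT library was below every library of the other groups. It fell by 0.29 in TAC WT (SE 0.08, adjusted p = 0.0133, edgeR) and rose by 0.28 in TAC KO against TAC WT (SE 0.08, adjusted p = 0.0124), and both calls held in all 21 alternatives of each comparison. Slc25a13 had 182, 159, 156 and 146 CPM in Sham WT, 133, 155, 133 and 119 in TAC WT, and 166, 162, 132 and 149 in TAC KO. Its groups overlapped and no comparison was called by edgeR with all libraries (-0.25, adjusted p = 0.0749, and 0.17, adjusted p = 0.179). The value in TAC WT was called by limma voom (adjusted p = 0.0310) and without the count filter (0.0468). Leaving out TAC WT replicate 2, it was -0.33 and also called (adjusted p = 0.0210).

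Of the 4 shuttle enzymes listed, 3 fell in TAC WT (median -0.26), where 10% of all genes fell. All 4 rose in TAC KO against TAC WT (median 0.33), where 15.7% of all genes rose. Got2, the mitochondrial aspartate aminotransferase, fell by 0.28 (adjusted p = 0.0173, edgeR) and rose by 0.37 (adjusted p = 0.00235), and Mdh2, the mitochondrial malate dehydrogenase, fell by 0.25 (adjusted p = 0.0117) and rose by 0.28 (adjusted p = 0.00339). The cytosolic aminotransferase Got1 was at -0.14 in TAC WT (adjusted p = 0.405) and rose by 0.39 in TAC KO (adjusted p = 0.0166).

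The other carboxylate carriers are Slc25a1, which exports citrate, and Slc25a10, which exchanges dicarboxylates for phosphate. Slc25a10 had 14.9, 14.1, 11.97 and 12.2 CPM in Sham WT, 11.97, 12.8, 11.8 and 11.5 in TAC WT, and 22.1, 17.3, 13.7 and 14.8 in TAC KO. TAC KO replicate 1 was the highest library, and all TAC KO libraries lay above TAC WT. It rose by 0.49 in TAC KO against TAC WT (SE 0.13, adjusted p = 0.00968, edgeR), or 0.28 with adjusted p = 0.0888 without GC and length trends. Slc25a1 rose in TAC KO against Sham WT by 0.33 (SE 0.10, adjusted p = 0.0256), from 6.44 ± 0.307 to 8.12 ± 0.653 CPM (SD, n = 4), a call lost with trends removed (0.10, adjusted p = 0.431) and without Sham WT replicate 1 or 4 or TAC KO replicate 1 or 4 (adjusted p from 0.0528 to 0.0729).

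**Figure D4:**
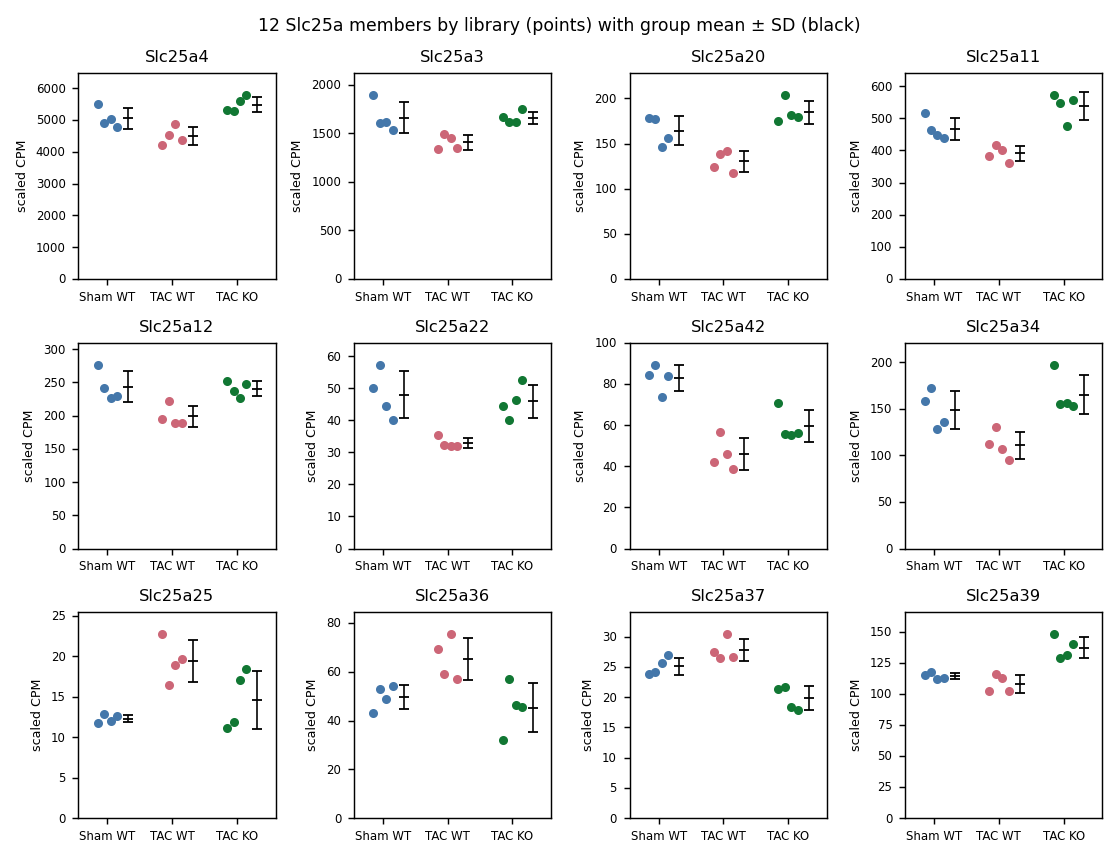
Scaled CPM of 12 members in each library, with the group mean and SD (n = 4) in black and each axis starting at 0. In Slc25a3, Slc25a11, Slc25a12, Slc25a20 and Slc25a22 the 4 TAC WT points lie below all points of the other groups, and in Slc25a37 the 4 TAC KO points lie lowest.

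Among the remaining amino acid carriers, Slc25a22 (chromosome 7, 141429744 to 141437892) imports glutamate with a proton. It had 50.1, 57.3, 44.5 and 40.1 CPM in Sham WT, 35.4, 32.4, 32.01 and 32.04 in TAC WT, and 44.4, 40.1, 46.4 and 52.7 in TAC KO. The 4 TAC WT libraries were lowest without overlap. Slc25a22 fell by 0.54 in TAC WT (SE 0.10, adjusted p = 0.00211, edgeR) and rose by 0.48 in TAC KO against TAC WT (SE 0.10, adjusted p = 0.00329), and both calls held in all 21 alternatives of each comparison.

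Slc25a15, the mitochondrial ornithine carrier, had 16.1, 17.3, 15.8 and 17.0 CPM in Sham WT, 13.0, 13.9, 12.6 and 12.5 in TAC WT, and 17.2, 17.0, 15.4 and 15.5 in TAC KO. TAC WT was again lowest without overlap, and the other groups overlapped. Slc25a15 fell by 0.35 (SE 0.07, adjusted p = 0.00262, edgeR) and rose by 0.32 (SE 0.07, adjusted p = 0.00290), and both calls held in all 21 alternatives of each comparison. Slc25a38, which carries glycine for heme synthesis, rose in TAC KO against TAC WT by 0.29 (SE 0.11, adjusted p = 0.0458), from 18.1 ± 1.67 to 22.2 ± 3.63 CPM (SD, n = 4) with overlapping ranges. That call was lost on leaving out any Sham WT library, TAC WT replicate 1 or 4, or TAC KO replicate 1, 2 or 4 (adjusted p from 0.0541 to 0.144), with the groups compared alone (0.0873) and with trends removed (0.10, adjusted p = 0.531). Slc25a29, a basic amino acid carrier, was not called, at -0.40 in TAC WT (adjusted p = 0.123, edgeR) and 0.33 in TAC KO against TAC WT (adjusted p = 0.163). TAC WT replicate 2 had 12.5 CPM of it, against 7.31 to 9.83 in the rest of its group. Leaving it out, both were called, at -0.57 (adjusted p = 0.0238) and 0.50 (adjusted p = 0.0333). The value in TAC WT was also called by limma voom (-0.50, adjusted p = 0.0118) and without the count filter (adjusted p = 0.0485). Slc25a44, which carries branched-chain amino acids, was not called.

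The largest fall among the members in TAC WT was that of Slc25a42 (ENSMUSG00000002346.16, chromosome 8, 70184340 to 70212305), which brings coenzyme A into the matrix. It had 84.2, 89.3, 73.9 and 83.9 CPM in Sham WT, 42.2, 56.6, 46.0 and 38.9 in TAC WT, and 71.0, 55.6, 55.3 and 56.0 in TAC KO. Sham WT was above both TAC groups without overlap, and TAC WT replicate 2 lay within the TAC KO range. Slc25a42 fell by 0.85 in TAC WT (SE 0.11, adjusted p = 0.000145, edgeR) and by 0.48 in TAC KO against Sham WT (SE 0.11, adjusted p = 0.00632), and these calls held in all 21 alternatives of each comparison. Its rise of 0.37 in TAC KO against TAC WT (SE 0.11, adjusted p = 0.0202) was lost without TAC WT replicate 1 or 4 or TAC KO replicate 1 (adjusted p from 0.0557 to 0.0615) and with trends removed (0.29, adjusted p = 0.0552).

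Slc25a16, another carrier linked to coenzyme A, fell by 0.26 in TAC WT (SE 0.09, adjusted p = 0.0489, edgeR), from 26.4 ± 1.29 to 22.0 ± 3.27 CPM (SD, n = 4). The ranges overlapped, and the call was lost on leaving out any library but TAC WT replicate 2 (adjusted p from 0.0532 to 0.137) and in 4 other alternatives. Slc25a26, which imports S-adenosylmethionine for methylation in the matrix, had 25.5, 27.4, 24.1 and 26.04 CPM in Sham WT, 21.8, 24.2, 25.1 and 20.8 in TAC WT, and 31.3, 31.8, 26.2 and 29.9 in TAC KO. TAC KO lay above TAC WT without overlap, and Slc25a26 rose there by 0.38 (SE 0.08, adjusted p = 0.00273), a call kept in all 21 alternatives. It overlaps Lrig1 on the other strand (950 to 1514 counts).

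Slc25a36 (chromosome 9, 97074961 to 97111157) carries pyrimidine nucleotides. Its CPM were 43.0, 52.7, 49.0 and 54.1 in Sham WT, 69.2, 59.1, 75.3 and 56.9 in TAC WT, and 32.2, 57.0, 46.5 and 45.6 in TAC KO. TAC WT lay above Sham WT without overlap and met TAC KO only at TAC WT replicate 4 and TAC KO replicate 2. Slc25a36 fell by 0.52 in TAC KO against TAC WT (SE 0.14, adjusted p = 0.0112, edgeR), or by 0.32 with adjusted p = 0.0761 without GC and length trends. Its value of 0.39 in TAC WT was not called (adjusted p = 0.0637), though DESeq2 (0.0363), limma voom (0.0175), no count filter (0.0127), the groups alone (0.0151) and trend removal (0.0416) put it past the threshold.

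Among the other cofactor and nucleotide carriers, Slc25a51, which carries NAD+, had 70.8, 72.9, 69.7 and 73.8 CPM in Sham WT, 70.8, 71.5, 65.5 and 62.3 in TAC WT, and 68.6, 72.3, 69.4 and 67.9 in TAC KO. The 3 groups overlapped and its values were between -0.09 and 0.04. Slc25a33, a pyrimidine nucleotide carrier, was at 0.32 in TAC KO against TAC WT (adjusted p = 0.0695, edgeR). Its call turned on TAC KO replicate 3, at 11.1 CPM against 15.4 to 18.4 in the other TAC KO libraries. Without that library Slc25a33 was called higher than in TAC WT (0.46, adjusted p = 0.00198) and than in Sham WT (0.29, adjusted p = 0.0304, against 0.15 with all libraries), and without the count filter it was called against TAC WT (adjusted p = 0.0404). Slc25a32, a folate carrier, was not called in any comparison.

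Iron enters the matrix through a pair of mitoferrins. Slc25a37 (mitoferrin 1; ENSMUSG00000034248.7, chromosome 14, 69241848 to 69285112), best known from red cell precursors, had 23.8, 24.1, 25.6 and 26.9 CPM in Sham WT, 27.4, 26.5, 30.4 and 26.6 in TAC WT, and 21.3, 21.7, 18.4 and 17.8 in TAC KO. The 4 TAC KO libraries were below all others. Slc25a37 fell by 0.49 in TAC KO against TAC WT (SE 0.08, adjusted p = 0.000513, edgeR) and by 0.34 against Sham WT (SE 0.08, adjusted p = 0.00566), and both calls held in all 21 alternatives of each comparison.

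Slc25a28 (mitoferrin 2), the form of other tissues, had 18.7, 20.6, 20.998 and 21.9 CPM in Sham WT, 17.3, 18.6, 18.5 and 18.1 in TAC WT, and 22.2, 24.9, 23.6 and 22.1 in TAC KO. TAC KO lay above both wild-type groups and TAC WT below Sham WT, each without overlap. Slc25a28 rose by 0.36 in TAC KO against TAC WT (SE 0.07, adjusted p = 0.00132, edgeR), a call kept in all 21 alternatives. Its values of -0.18 in TAC WT (adjusted p = 0.0684) and 0.17 in TAC KO against Sham WT (adjusted p = 0.0631) were not called. The former was called by limma voom (adjusted p = 0.0204) and without Sham WT replicate 1 (0.0471). The latter was called with upper-quartile scaling (adjusted p = 0.0383) and without TAC KO replicate 1 (0.0473). Per 100 units of Slc25a28 per kilobase, Slc25a37 had 72.9 to 79.3 in Sham WT, against 88.9 to 102 in TAC WT and 48.4 to 59.8 for TAC KO, 3 ranges that did not touch. Erythroid markers summed to 116 to 176 CPM in Sham WT, against 110 to 241 in TAC WT and 136 to 188 for TAC KO, overlapping, and 0 of 5 passed in any comparison by edgeR or DESeq2, with 0 at an unadjusted p under 0.05. Macrophage markers were higher in TAC KO, at 111 to 147 CPM against 74.9 to 107 in TAC WT, and 3 of 5 rose there, where 15.7% of all genes rose. Endothelial markers were lower in TAC KO, at 876 to 984 CPM against 995 to 1221 in TAC WT. Of these, 1 of 5 fell there (median -0.03), where 17.3% of all genes fell. Smooth muscle and pericyte markers overlapped, at 848 to 1010 CPM in TAC KO and 929 to 1284 in TAC WT, and 1 of 4 fell. The part of these cells in the mitoferrin values was not tested.

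The glutathione carriers also parted. Slc25a39 (chromosome 11, 102402985 to 102407946) had 115, 118, 112 and 112 CPM in Sham WT, 102, 116, 112 and 102 in TAC WT, and 148, 129, 131 and 140.1 in TAC KO. TAC KO was above both wild-type groups without overlap. Slc25a39 rose by 0.34 against TAC WT (SE 0.06, adjusted p = 0.00119, edgeR) and by 0.26 against Sham WT (SE 0.06, adjusted p = 0.00716), but with the trends of GC and length taken out by 0.12 (adjusted p = 0.155) and 0.03 (adjusted p = 0.751), so both calls were lost. Slc25a40, its close relative, was lower in TAC KO, at 8.55 to 9.33 CPM against 10.05 to 13.0 in Sham WT. Its fall of 0.33 against Sham WT (SE 0.10, adjusted p = 0.0272) was lost with trends removed (-0.12, adjusted p = 0.427) and without Sham WT replicate 1 or TAC KO replicate 1 or 2 (adjusted p from 0.0562 to 0.0878).

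Members with no settled substrate were led by Slc25a34 (chromosome 4, 141618824 to 141623821). Its CPM were 158, 173, 128 and 136 in Sham WT, 112, 130.1, 107 and 95.1 in TAC WT, and 197, 155, 156 and 153 in TAC KO. TAC KO was above TAC WT without overlap, with replicate 1 highest, and Sham WT touched TAC WT through TAC WT replicate 2. Slc25a34 rose by 0.58 in TAC KO against TAC WT (SE 0.11, adjusted p = 0.00205, edgeR), the largest rise among members in that comparison. With trends removed its value was 0.41, still called but below Slc25a22 (0.49), Slc25a20 (0.45) and Slc25a12 (0.43). Its fall of 0.42 in TAC WT (SE 0.11, adjusted p = 0.0183) was lost without Sham WT replicate 1 or 2 or TAC WT replicate 4 (adjusted p from 0.0549 to 0.0661). Slc25a35, its nearest relative by name, was not called (-0.32, adjusted p = 0.0963, and 0.25, adjusted p = 0.157). In TAC WT it was called lower by limma voom (-0.37, adjusted p = 0.0231) and without TAC WT replicate 2 (-0.41, adjusted p = 0.0401). Slc25a35 overlaps Rangrf on the other strand (831 to 1290 counts).

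Slc25a46, an outer-membrane member of the family that takes part in mitochondrial shape, had 84.7 ± 6.33 CPM in Sham WT, against 82.9 ± 8.61 in TAC WT and 74.4 ± 4.41 for TAC KO (SD, n = 4). TAC KO and Sham WT did not overlap, but the value of -0.19 was not called (adjusted p = 0.0890, edgeR), except without TAC WT replicate 2 (0.0478). Slc25a45, Slc25a47 and Slc25a53 were not called, apart from Slc25a47 in TAC KO against Sham WT with trends removed (-0.33, adjusted p = 0.0442). The uncoupling-protein-like members Slc25a14, Slc25a27 and Slc25a30 had 0 calls of 3 in each comparison by edgeR and by DESeq2, with 1 unadjusted p under 0.05, that of Slc25a27 in TAC KO against Sham WT. There limma voom called Slc25a27 lower (-0.41, adjusted p = 0.0225). Slc25a30, the most abundant of these, had 12.2, 10.2, 11.7 and 11.7 CPM in Sham WT, 12.2, 11.8, 12.3 and 11.8 in TAC WT, and 11.3, 9.61, 13.3 and 11.5 in TAC KO, which overlapped throughout.

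The uncoupling proteins proper and the carrier-like MTCH proteins belong to the family by structure but not by symbol. Ucp3, of muscle mitochondria, had 19.98, 48.1, 23.4 and 20.6 CPM in Sham WT, 14.4, 11.1, 10.1 and 7.24 in TAC WT, and 33.4, 21.5, 28.2 and 37.0 in TAC KO. TAC WT was lowest without overlap, and Sham WT replicate 2 was highest of all. Ucp3 fell by 1.38 in TAC WT (SE 0.28, adjusted p = 0.00305, edgeR) and rose by 1.48 in TAC KO against TAC WT (SE 0.28, adjusted p = 0.00138), changes larger than that of any Slc25a member. Mtch1 and Mtch2, of the outer membrane, rose in TAC KO by 0.22 (adjusted p = 0.0115) and 0.28 (adjusted p = 0.00248), Ucp2 was at 0.37 (adjusted p = 0.0528), and Ucp1, at most 0.172 CPM, was not tested.

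**Figure D5:**
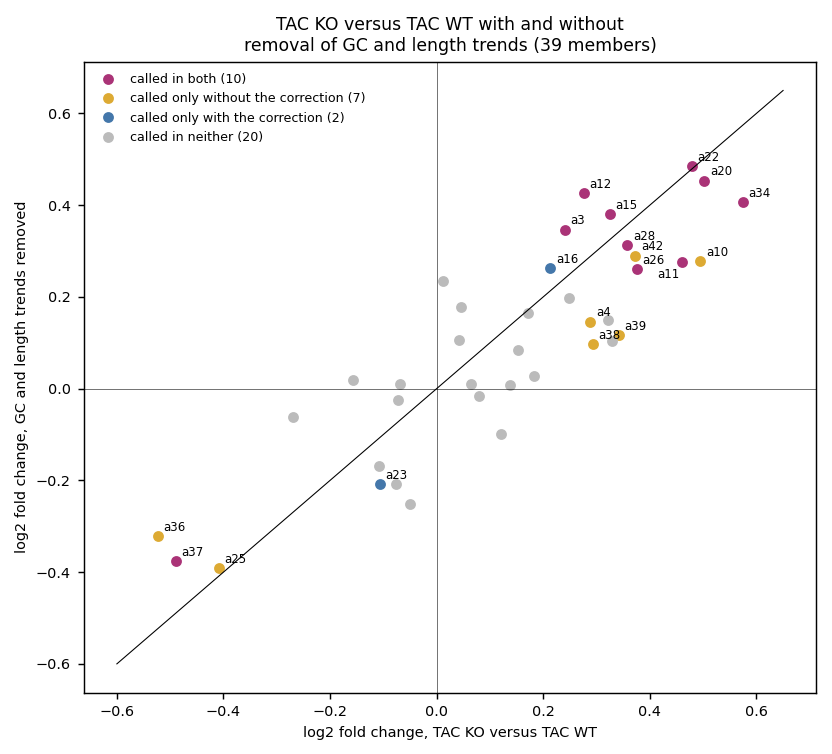
Log2 fold change of the 39 members in TAC KO versus TAC WT, on the horizontal axis as fitted and on the vertical axis after removal of each library's GC and length trends, with a line of equality and colours for the call in each fit. Of the calls, 10 stand in both fits, 7 only without the correction, among them Slc25a4 and Slc25a39, and 2 only with it.

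Partners of the carriers were read from lists of other mitochondrial genes. For scale, 9.67% of all genes rose and 10% fell in TAC WT, and 15.7% rose and 17.3% fell in TAC KO against TAC WT. Of 9 tested subunits of the ATP synthase head and stalk, which uses the substrates brought by Slc25a4 and Slc25a3, 6 fell in TAC WT (median -0.23) and 7 rose in TAC KO against TAC WT (median 0.27), with Atp5a1 falling by 0.34 (adjusted p = 0.00408, edgeR) and rising by 0.37 (adjusted p = 0.00154). Of the 3 porins of the outer membrane, Vdac1 fell by 0.24 (adjusted p = 0.0226) and rose by 0.27 (adjusted p = 0.00881), while Vdac2 and Vdac3 were not called. Mpc1 and Mpc2, the pyruvate carrier, were not called in TAC WT and rose in TAC KO against TAC WT by 0.22 (adjusted p = 0.0158) and 0.25 (adjusted p = 0.0111). Of 7 pyruvate carrier and sideroflexin genes, 1 rose and 1 fell in TAC WT and 3 rose in TAC KO. Of the 8 calcium uniporter and exchanger genes, 1 rose in TAC WT, and 1 rose and 1 fell in TAC KO against TAC WT.

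Of 10 genes of the machinery that inserts carriers into the inner membrane, 1 rose and 0 fell in TAC WT (median 0.10), against 9.67% and 10% of all genes. In TAC KO against TAC WT 5 rose and 1 fell (median 0.14), against 15.7% and 17.3% of all genes. Timm10, a chaperone that guides carriers across the space between the membranes, rose in TAC WT by 0.23 (adjusted p = 0.0268, edgeR) and again in TAC KO against TAC WT by 0.25 (adjusted p = 0.0115). Timm22, the insertion pore for carriers, was at -0.003 in TAC WT (adjusted p = 0.979) and rose by 0.30 in TAC KO (adjusted p = 0.00118). Timm9, which works with Timm10, fell by 0.23 in TAC KO (adjusted p = 0.0376).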

How the data were processed

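The authors deposited 1 file of raw whole-number counts per gene for each of the 12 libraries. Per the labels' protocols, libraries were made from 250 ng of RNA after polyA selection with a stranded kit. The submitters' processing notes name the build GRCm38 and the tools STAR, bcl2fastq, Trim Galore 0.5.0, FastQC 0.11.8, MultiQC 1.7, featureCounts 1.6.4, DESeq2 and StringTie 1.3.5. The sources used here give neither their roles nor the annotation release or strand setting. Wrong strand handling could move counts between a carrier and a gene on the other strand.

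Identifiers were matched without version to GENCODE M21, which named 54079 of 54146 records. Counts were tested in R 4.3.3 with edgeR 4.0.16 (quasi-likelihood F-test, TMM scaling, filterByExpr with the 3 groups, all 12 libraries in 1 fit, no covariates). A gene was called at a Benjamini-Hochberg adjusted p under 0.05 over all 15477 genes tested, and the common biological coefficient of variation was 0.113. The scripts were tested on simulated data. Levels per kilobase used the union of exons. A count of 0 was given a limit of 3 counts, which covers counting error only. Groups came from the treatment label, and replicate numbers follow accession order and pair nothing.

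Values in every library are given for Slc25a4, Slc25a20 and Slc25a3, for the 8 members with the smallest p in each of TAC WT versus Sham WT and TAC KO versus TAC WT, and for the most abundant member of each role. Slc25a5, Slc25a10, Slc25a36 and Ucp3 and the other genes given by library were added for their role in a pair or a list. Of the other lists up to 4 genes by smallest p were named, and others where their function pairs with a carrier. Values of 1 member, which enters the counts over the family, are not reported here. Members and lists were chosen with earlier results of these data known. The 21 alternatives per comparison were DESeq2 1.42.0, limma 3.58.1 voom with weights for library quality, upper-quartile and RLE scaling, no count filter, a filter of 10 counts in 4 libraries, the groups compared alone, 1 surrogate variable (sva 3.50.0), removal of GC and length trends (splines, 5 degrees of freedom) and leaving out each library.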

Additional observations from a re-analysis of the deposited data

Results flagged for a closer look

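In 6 of 120 groups of 4 libraries, 1 library lay far from the other 3 by Dixon's criterion, and chance gives about 1 in 20 groups. In TAC KO replicate 1, the library with the largest GC contrast (0.339), Slc25a34 was highest at 197 CPM (others 153 to 156), Slc25a42 was highest at 71.0 (55.3 to 56.0) and Slc25a17 was lowest at 14.6 (18.1 to 18.6). In TAC WT replicate 1, Slc25a22 was highest at 35.4 CPM (32.01 to 32.4) and Slc25a23 was highest at 77.1 (68.8 to 69.6). In TAC WT replicate 2, Slc25a14 was lowest at 1.82 CPM (2.13 to 2.17). The share of GC content in these values was not tested.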

How the results depend on the processing

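No called value changed direction, and of 2457 values of single members under an alternative 2319 stayed on their side of it, 71 lost a call and 67 gained one. In TAC WT versus Sham WT, 6 of 10 calls held in all 21 alternatives, in TAC KO versus TAC WT 9 of 17 and in TAC KO versus Sham WT 2 of 6. Members called higher in TAC WT versus Sham WT numbered 1 in the reported fit, 2 with DESeq2, no count filter or the groups alone, 3 with limma voom or trends removed, and 1 to 2 on leaving out a library. All genes called higher there numbered 1496, against 1650 with DESeq2, 1501 with no count filter and 1663 with the groups alone. Limma voom gave 2083, trend removal 1688, and leaving out a library 1119 to 1735. Members called lower there numbered 9, against 15 with limma voom and 5 to 12 on leaving out a library, with 5 without Sham WT replicate 2 or TAC WT replicate 4. All genes called lower numbered 1555, against 2205 with limma voom and 1132 to 1780 on leaving out a library. In TAC KO versus TAC WT, leaving out a library gave 11 to 16 members higher and 2 to 3 lower. The same fits gave 1816 to 2413 of all genes higher and 2147 to 2697 lower. Members called higher in TAC KO versus Sham WT numbered 3, against 6 with DESeq2, 5 with limma voom, 7 with upper-quartile scaling, 5 with the groups alone, 0 with trends removed, and 2 to 8 on leaving out a library (8 without TAC KO replicate 3), and 2 to 4 were lower. All genes called higher numbered 1986, against 2171, 2408, 2254, 2222 and 1454 in those fits. Leaving out a library gave 1378 to 2107 of all genes higher (1729 without TAC KO replicate 3) and 1690 to 2380 lower. Slc25a4 made 68.1% of the summed level per kilobase, or 66.2% by the longest transcript. Beyond the fits' own construction the causes were not tested. Over all settings the family median was -0.17 to -0.11, 0.11 to 0.23 and -0.03 to 0.03 in the 3 comparisons, so the last has no direction. No paired analysis was possible because the labels give no replicate numbers. Slc25a2, at 1 to 11 counts, was limited by depth.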
